A study of Drosophila melanogaster with 3 samples.

Results

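The proteasome genes of OSS cells were examined on expression arrays. They were taken as the genes whose symbol in the platform annotation begins with Prosalpha, Prosbeta, or Rpn or Rpt and a digit, and that have a probe set naming no other gene. These were 40 of 11982 genes with such a probe set, each with 1 probe set. Of them 26 encode canonical subunits, which are 12 of the core, 7 of the base and 7 of the lid, and 14 carry a T or an R in the symbol and are called paralogs here. RefSeq holds 48 symbols of the same pattern. Of the 8 others, Prosbeta1, Rpt1, Rpt6, Rpt6R, Rpn9 and Rpn10 were not analysed here, and Prosalpha1 and Prosalpha1R share a probe set that names both.

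OSS is an established, stable line of somatic cells from the ovary of Drosophila melanogaster, which the labels trace to follicular stem cells. Total RNA of 3 samples in exponential growth, labelled OSS cells_1, OSS cells_2 and OSS cells_3 and called replicates 1 to 3 here, was labelled with biotin and hybridised to 1 array each. The cells grew in M3 medium with fetal bovine serum, insulin, glutathione and fly extract and received no additional treatment, and no genotype or second condition was labelled. With 1 group and 1 line there was no comparison between conditions, and nothing in the labels says that the samples came from separate cultures, so each SD and p-value covers the spread among these 3 samples alone, and that spread may be technical.

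The proteasome degrades proteins that carry ubiquitin chains. Its core particle is a barrel of alpha rings, which gate the entrance, around beta rings, which hold the protease sites. A regulatory particle caps the barrel: its base holds a ring of ATPases that unfold and thread substrates, and its lid removes the ubiquitin. In Drosophila, several subunits have a second gene that is expressed in the male germline, and Prosalpha6T is known to be needed for sperm development.

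Values are log2 levels as deposited. The lowest, 2.39, was the same on each array, and the highest was 14.75. Across probe sets, the Pearson correlations between arrays were 0.986 to 0.995. The deposited values were identical on all 3 arrays for 67.2% of probe sets, so an SD of 0 describes the deposited summary and understates the error. Each gene was set against a background level of 2.49, the 95th percentile of 112 odorant and gustatory receptor genes taken as unused in these cells, and was called above or below it at an adjusted p under 0.05 (limma over all genes, one-sided). Probe sets differ in affinity, so a higher level of one gene than of another does not measure more transcript, and no gene's level was tested against another's. In bulk RNA, few cells with a transcript and little of it in every cell cannot be told apart.

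The labelled cell type was checked against its markers. All 6 genes listed as ovarian somatic markers were above background, beside 46.6% of all genes. They ran from fs(1)Yb at 4.55 ± 0.32 to armi at 7.49 ± 0.54 (SD, n = 3). Both are genes of the somatic piRNA pathway. The transcription factor gene tj was at 6.83 ± 0.69. Whether each listed gene is limited to somatic cells was not tested. None of 6 germline markers was above, with the helicase gene vas at 2.39 and the highest, osk, also at 2.39 on every array. All 6 were at or near the lowest value, which 28.4% of all genes had on every array. Of 6 hemocyte markers 2 were above, beside 46.6% of all genes. These were Pxn, a peroxidasin gene, at 4.43 ± 0.27 and crq at 3.54 ± 0.062. The other 4 were called below, with Hml at the lowest value on every array.

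Canonical proteasome genes were above background in every measured case. All 26 were called above, beside 46.6% of all 11982 genes. Their means ran from 5.42 for Rpt4 to 8.38 for Prosbeta5, with a median of 6.97 beside 2.47 over all named genes and 3.98 over the 5587 genes above background. Against the highest receptor gene, at 2.79, all 26 were again above, beside 37.1% of all genes. At a stricter level, 1 log2 unit above background, 25 were above, beside 25.3% of all genes, and the remaining gene was Rpn5. The paralogs had other values: 1 of 14 was above background, 12 were called below, beside 50.1% of all genes, and 1 was unresolved.

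**Figure D1:**
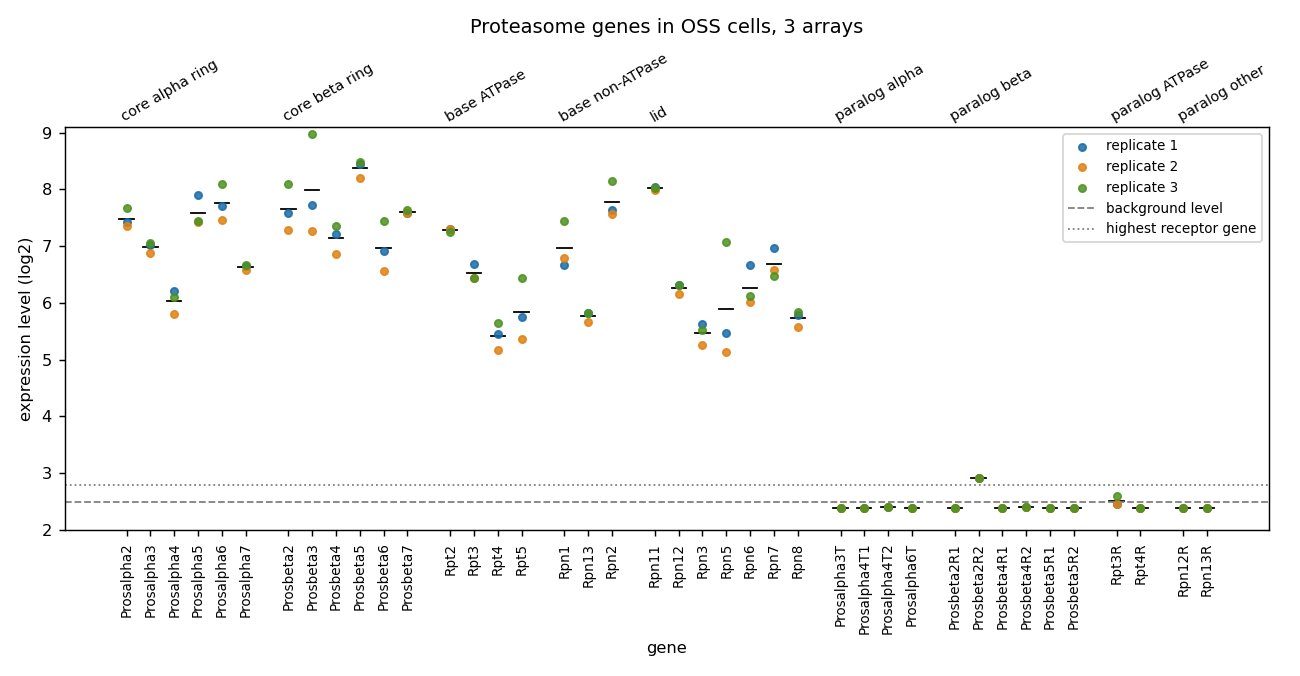
Expression level (log2) of the 40 proteasome genes, grouped by part of the particle, with 1 point per array, a black bar at the mean of the 3 arrays, a dashed line at the background level and a dotted line at the highest receptor gene. All canonical genes lie over 5 on every array, and 13 of the 14 paralogs lie under the dotted line.

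The 6 alpha ring genes measured, Prosalpha2 to Prosalpha7, were all above background, with means from 6.04 to 7.76 and a median of 7.24. Prosalpha6 measured 7.72, 7.46 and 8.10 on replicates 1, 2 and 3 (5.27 above background, limma adjusted p = 0.00034). Prosalpha4 had the lowest values of the ring, 6.21, 5.81 and 6.10 (adjusted p = 0.0003). Each of its 3 values still lay over 3 log2 units above the background level. Prosalpha5 measured 7.89, 7.43 and 7.45, and Prosalpha2 measured 7.43, 7.36 and 7.67. Prosalpha3, at 7.02, 6.89 and 7.06, and Prosalpha7, at 6.66, 6.58 and 6.67, varied little between arrays, with SDs of 0.089 and 0.047.

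The 6 beta ring genes measured were all above background, with means from 6.97 to 8.38 and a median of 7.63. The protease sites of the core lie in the beta1, beta2 and beta5 subunits. Prosbeta5, which encodes the chymotrypsin-like one, measured 8.45, 8.20 and 8.49 on replicates 1, 2 and 3. This was the highest mean of the 40 genes (5.89 above background, limma adjusted p = 5.3e-05). Prosbeta5 and Prosbeta7 of this ring are among the 8 members whose probe set names end in _s_at or _a_at. Those members were left out in the alternative without such probe sets. Prosbeta2, for the trypsin-like subunit, measured 7.58, 7.28 and 8.10 (adjusted p = 0.00059). The other members of the ring measured here have a structural role. Prosbeta3 measured 7.73, 7.27 and 8.99, with replicate 3 over 1 log2 unit above both others (adjusted p = 0.0029). Prosbeta4 measured 7.21, 6.85 and 7.35, and Prosbeta6 measured 6.91, 6.56 and 7.44. Prosbeta7 differed little between arrays, at 7.59, 7.59 and 7.63.

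All 7 base genes were above background, with means from 5.42 to 7.78 and a median of 6.52. Rpt2, Rpt3, Rpt4 and Rpt5 encode ATPases of the ring that unfolds substrates. Rpt2 measured 7.29, 7.29 and 7.25 on replicates 1, 2 and 3 (limma adjusted p = 2.3e-06), and Rpt3 measured 6.69, 6.44 and 6.44. Rpt4 had the lowest mean of all canonical genes, with 5.46, 5.17 and 5.64 (2.94 above background, adjusted p = 0.0006). Rpt5 measured 5.75, 5.36 and 6.43. Rpn1 and Rpn2 encode the large scaffold proteins of the base. Rpn2 measured 7.63, 7.56 and 8.15, and Rpn1 measured 6.66, 6.79 and 7.44. In both, replicate 3 was the highest. Rpn13, a ubiquitin receptor gene, measured 5.82, 5.67 and 5.83.

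All 7 lid genes were above background, with means from 5.47 to 8.02 and a median of 6.26. Rpn11 encodes the metalloprotease that cuts ubiquitin chains from substrates. It measured 8.03, 7.99 and 8.03 on replicates 1, 2 and 3, with an SD of 0.021 (5.53 above background, limma adjusted p = 9.1e-07). Rpn8, whose protein pairs with Rpn11, measured 5.78, 5.58 and 5.84. The remaining lid genes measured here encode scaffold subunits. Rpn7 measured 6.98, 6.58 and 6.47, Rpn6 6.67, 6.01 and 6.12, Rpn12 6.31, 6.15 and 6.31, and Rpn3 5.63, 5.26 and 5.52. Rpn7 was the only canonical gene with 3 different values to be lowest on replicate 3.

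Rpn5 varied most between arrays of the 40 genes. It measured 5.47, 5.13 and 7.08 on replicates 1, 2 and 3, with a mean of 5.89 ± 1.04 (SD, n = 3), so that replicate 3 stood apart from both others. The gene was above background in the fit with all arrays (3.40 above, limma adjusted p = 0.013). Without replicate 1 it was not called (3.62 above, adjusted p = 0.059), and 25 of 26 canonical genes were then above, beside 43.6% of all genes. Without replicate 3 it lay 2.81 above background and was called (adjusted p = 0.0035). Among 1121 genes above background with means in the range of the canonical genes, 98.7% had a smaller SD than Rpn5 and 97.5% a smaller one than Prosbeta3.

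As deposited, most canonical genes had their lowest value on replicate 2 and their highest on replicate 3. After quantile normalization replicate 3 was still the array most often highest, but replicate 1, not replicate 2, was most often lowest. Their median SD was 0.22, beside 0.21 over the 1121 genes of the same range, and values on all 3 arrays differed in 22 of the 26. Among those 22, the lowest value was on replicate 2 in 20 (90.9%), beside 60.3% of the 832 genes of the same range with 3 different values. The highest value was on replicate 3 in 16 (72.7%), beside 39.9%. After quantile normalization of the arrays, replicate 1 was lowest in 12 of 26 (46.2%), beside 38.1% of genes of the same range, and replicate 2 in 10 (38.5%), beside 25.2%. Replicate 3 was then highest in 15 of 26 (57.7%), beside 32.1%. The normalization split tied deposited values, so that 26 canonical genes in place of 22 had 3 different values. In the same range these were 1117 genes in place of 832. The counts before and after normalization thus cover different sets of genes. By part of the particle, and among genes with 3 different values, replicate 3 was highest as deposited and after quantile normalization in 5 of 5 and 5 of 6 beta ring genes and in 3 of 3 and 3 of 3 non-ATPase base genes. The counts were 4 of 6 and 2 of 6 in the alpha ring, 2 of 2 and 2 of 4 among the ATPases, and 2 of 6 and 3 of 7 in the lid. With 1 array for each sample, these are descriptions of 3 arrays and were not tested.

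**Figure D2:**
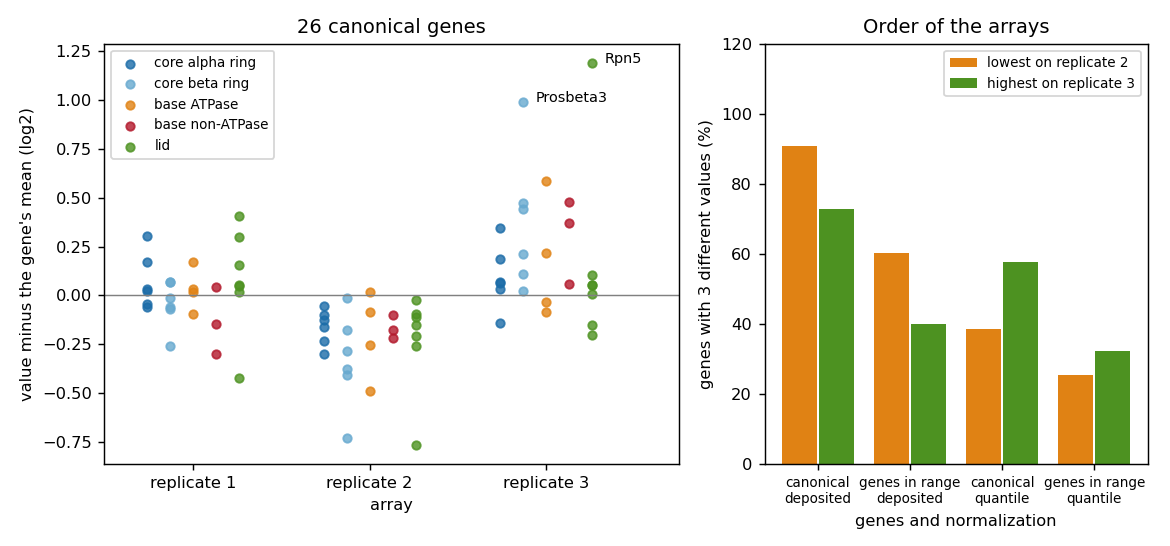
Left, the value of each of the 26 canonical genes on each array minus the gene's mean over the 3 arrays (log2), coloured by part of the particle. Right, the percent of genes with 3 different values that were lowest on replicate 2 or highest on replicate 3, for canonical genes and for the 1121 genes above background in the same range of means (genes in range), as deposited and after quantile normalization; the share lowest on replicate 2 was 90.9% for canonical genes as deposited and 38.5% after normalization.

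The paralogs were at or near the lowest value of the arrays. Of the 14, 9 had that value, 2.39, on all 3 arrays, which is 64.3% of them beside 28.4% of all genes. The alpha paralogs Prosalpha3T, Prosalpha4T1 and Prosalpha6T were among the 9, and Prosalpha4T2 measured 2.40 on every array. Their canonical genes Prosalpha3, Prosalpha4 and Prosalpha6 had means of 6.99, 6.04 and 7.76. The beta paralogs Prosbeta2R1, Prosbeta4R1 and Prosbeta5R1 measured 2.39 on every array, Prosbeta5R2 2.39 ± 0.001 (SD, n = 3) and Prosbeta4R2 2.40 on every array. The canonical Prosbeta4 and Prosbeta5 had means of 7.14 and 8.38. Rpt4R, Rpn12R and Rpn13R also had the lowest value on every array, while Rpt4, Rpn12 and Rpn13 had means of 5.42, 6.26 and 5.77.

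The 12 calls below background rest on differences of -0.098 to -0.086 log2 units from the level and on SDs at or near 0. With 1 spread for every gene, pooled over the genes whose values differ between arrays, none of the 12 was called below (adjusted p = 0.72 over all genes), and 0 of all 11982 genes were. With that spread the 26 canonical genes and Prosbeta2R2 were still above background, beside 39.4% of all genes. The lowest deposited value allows no statement about how much less than background a transcript was.

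**Figure D3:**
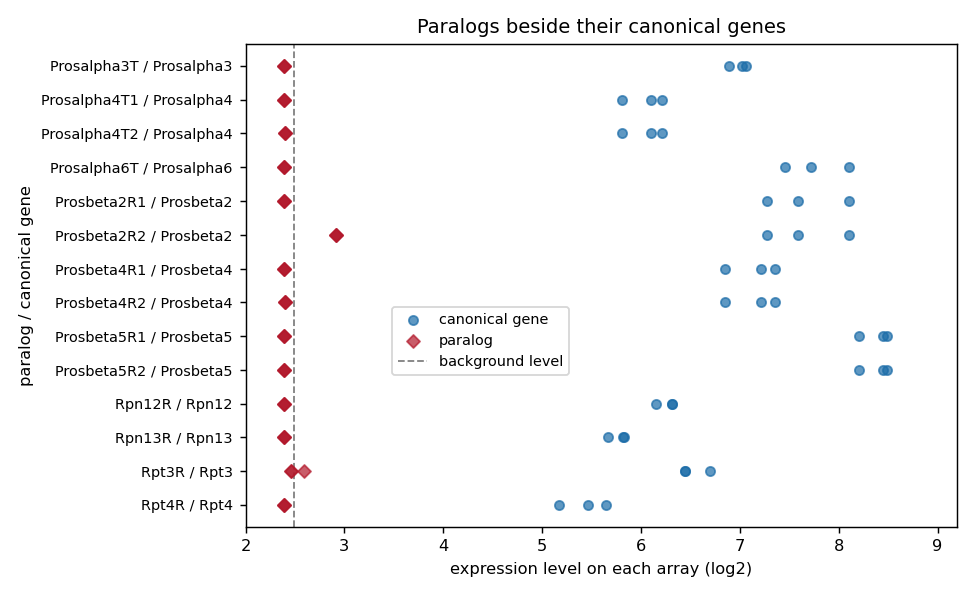
Expression level (log2) of each paralog (red diamonds) and its canonical gene (blue circles) on the 3 arrays, with a dashed line at the background level. Prosbeta2R2, at 2.92 on every array, is the paralog to the right of the line on all 3 arrays, and every canonical gene lies over 5.

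Prosbeta2R2 was the paralog above background. It measured 2.92 on each array, 0.43 above the background level (limma adjusted p = 2.4e-06), while its canonical gene Prosbeta2 had a mean of 7.65. With the pooled spread its adjusted p over all genes was 0.0085. It was also called against the highest receptor gene (0.13 above, limma adjusted p = 4.4e-05). That call rests on an SD of 0, which understates the error, and the pooled spread was not applied at that level. No receptor gene of the background list had a higher mean. Its difference from the stricter level was -0.57, and 0 of the 14 paralogs were above, beside 25.3% of all genes.

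Rpt3R, the paralog of the ATPase gene Rpt3, was unresolved. It measured 2.46, 2.46 and 2.59 on replicates 1, 2 and 3, with a mean of 2.50 ± 0.074 (SD, n = 3), 0.016 above background (limma adjusted p = 0.71). Replicates 1 and 2 lay under the background level and replicate 3 over it. Without replicate 3 the difference was -0.027 and the gene was called below. Of the 112 receptor genes 5 had a higher mean than Rpt3R. Its canonical gene Rpt3 had a mean of 6.52.

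Markers of the male germline were low as well. Of 17 testis genes 1 was above background, 15 were below and 1 was unresolved, beside 46.6% above and 50.1% below over all genes. Of the 17, 10 had the lowest value on every array, beside 28.4% of all genes. With the pooled spread 0 of all genes were called below, so these 15 calls have the same limit as those of the paralogs. The gene with the highest mean was twe, a meiotic phosphatase gene, at 2.88, 2.66 and 2.55, unresolved (limma adjusted p = 0.11). The gene above background was mia, at 2.52 on every array, which is under the highest receptor gene, at 2.79. The testis-specific tubulin gene betaTub85D and the arrest gene sa had the lowest value on every array.

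**Figure D4:**
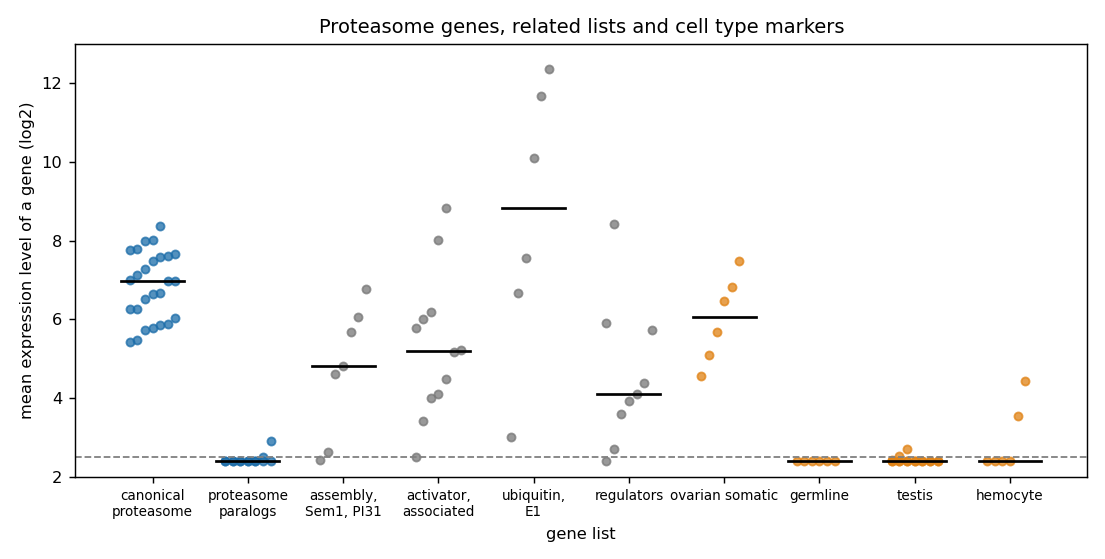
Mean expression level (log2) over the 3 arrays of each gene in the canonical and paralog groups, in 4 lists of related genes (grey) and in 4 lists of cell type markers (orange), with black bars at the medians and a dashed line at the background level. The canonical genes have a median of 6.97, and the paralogs, germline and testis lists have medians at the lowest value, 2.39.

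The genes beside the proteasome genes in the RefSeq gene order were compared with the same background level. Of 48 measured neighbours of canonical genes, 37 (77.1%) were above background, 9 were below and 2 were unresolved, with a median level of 3.77, beside 46.6% above and 50.1% below over all genes. Of 25 measured neighbours of the paralogs, 7 (28.0%) were above, 17 were below and 1 was unresolved, with a median of 2.39. Both neighbours were above background for 2 of the 14 paralogs, Prosbeta2R2 and Rpt3R, and for 13 of the 26 canonical genes. These totals include Prosbeta2R1, Prosbeta5R1, Prosalpha7, Rpn6, Rpn12 and Rpn13, each with a neighbour that was not analysed. The share of all genes with both neighbours above was not computed. The neighbours of Prosbeta2R2 were CG1116 at 2.87 and cno, a junction protein gene, at 2.57. Those of Rpt3R were Tti1 at 2.70 and the glycosylation gene Alg12 at 2.63, and Alg12 overlaps Rpt3R in the annotation. Further neighbours above background were CG33125 at 2.92 beside Prosbeta4R1, Mayo at 2.61 beside Prosalpha3T and ind at 2.63 beside Rpn12R. Those paralogs had the lowest value on every array. The means of cno, Tti1, Alg12, Mayo and ind lay under that of the highest receptor gene, 2.79. Prosbeta4R1 and Prosbeta4R2 lie on both sides of the odorant receptor gene Or23a, which overlaps Prosbeta4R2 and had the lowest value on every array. These neighbours were examined after the members' values were seen, and whether their transcripts bear on the values of Prosbeta2R2 or Rpt3R was not tested.

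**Figure D5:**
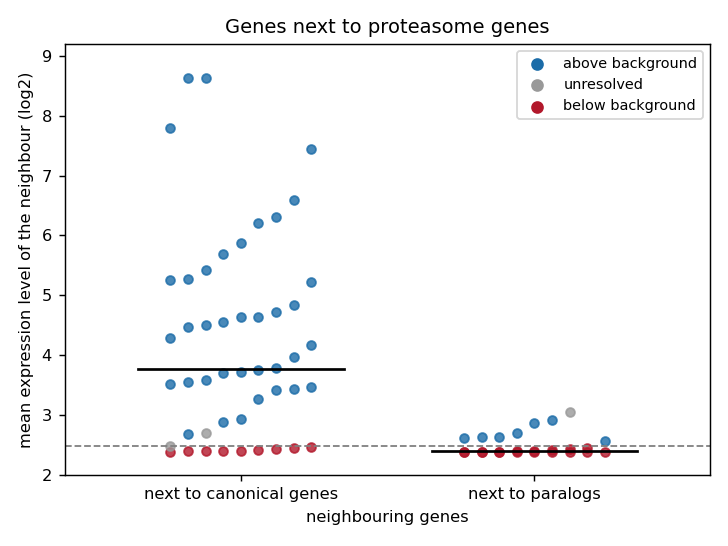
Mean expression level (log2) of the measured genes next to canonical proteasome genes (48 genes) and next to paralogs (25 genes), coloured by their call against background, with black bars at the medians of 3.77 and 2.39 and a dashed line at the background level. Most neighbours of canonical genes lie over the line and most neighbours of paralogs under it.

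Genes that build or bind the proteasome were mostly above background. Of 17 listed names for assembly factors and further subunits, 7 were matched to a measured gene. Of these 6 were above, beside 46.6% of all genes, and at the stricter level 5 were, beside 25.3%. The 10 names without a match include mammalian and yeast names and a synonym of ntc, so the genes behind them may be measured under other fly names. Sem1, a small lid subunit outside the symbol pattern, measured 6.89, 6.02 and 7.40 on replicates 1, 2 and 3 (limma adjusted p = 0.0029). Pomp, a chaperone of core assembly, measured 6.33, 5.75 and 6.07. The lowest were ntc, an F-box gene that acts in sperm differentiation, at 2.63 on every array, and CG8858. The gene ntc was called above background with an SD of 0 and lay under the highest receptor gene, at 2.79. CG8858 was unresolved, at 2.39, 2.39 and 2.47.

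Of 12 measured genes for activators and associated proteins, 11 were above background, beside 46.6% of all genes. At the stricter level 8 were above, beside 25.3%. REG, which encodes an activator that binds the core without ATP, measured 8.81, 8.66 and 9.02 on replicates 1, 2 and 3 (limma adjusted p = 6.3e-05). TER94, the gene of the segregase that extracts ubiquitinated proteins, measured 8.25, 7.84 and 7.93. Ufd1, a cofactor gene of that segregase, measured 3.31, 3.14 and 3.80, and CG5087 was unresolved at 2.48, 2.48 and 2.53.

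All 6 measured genes of the ubiquitin and E1 list were above background, beside 46.6% of all genes. At the stricter level 5 were above, beside 25.3%. RpL40 and RpS27A, which encode ubiquitin fused to ribosomal proteins, had means of 12.36 ± 0.60 and 11.68 ± 0.21 (SD, n = 3). The lowest were Uba2 at 6.67 ± 0.25 and Uba3 at 3.00 on every array, which encode parts of the activating enzymes of SUMO and NEDD8 rather than of ubiquitin. Of 9 measured regulators 8 were above, beside 46.6% of all genes, and at the stricter level 5 were, beside 25.3%. The gene rngo is counted in this list and in that of activators and associated proteins. The transcription factor gene crc measured 8.42 ± 0.24 and maf-S, which encodes a partner of Cnc, 5.90 ± 0.40. The lowest were sip3, a ubiquitin ligase gene of the endoplasmic reticulum, at 2.70 ± 0.030 and Keap1 at 2.39 on every array. The mean of sip3 lay under that of the highest receptor gene, 2.79. Keap1, whose protein restrains Cnc, was called below background with an SD of 0. With the pooled spread 0 of all genes were called below, so this call has the same limit as those of the paralogs. The gene cnc, whose product activates proteasome genes in flies and which was chosen after its value was seen, measured 4.07, 3.62 and 4.09 (limma adjusted p = 0.0038).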

How the data were processed

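The deposited values, 18952 probe sets on 3 arrays, are expression levels read as log2 from their range. Per the labels' protocols, the authors took scanner files through custom scripts. How those scripts corrected background, scaled the arrays and summarised probes is not given in the sources used here, nor is a genome build, so no coordinates are printed. Values were used as deposited.

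Genes were named through the platform annotation (13647 single-gene probe sets), taking the probe set with the highest mean per gene. All 40 members matched the RefSeq table (assembly Release 6 plus ISO1 MT) by gene identifier, with the same symbols. Neighbours are protein-coding genes in that table's order.

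Each gene's 3 values minus the background level were tested in R 4.3.3 by limma 3.58.1, with lmFit on an intercept alone and eBayes, one-sided each way, and Benjamini-Hochberg adjustment over 11982 genes. The method was also run on simulated data, but no result of that run is given here and nothing is concluded from it. SDs that rounding left just above 0 were set to 0. The number of arrays limits the precision.

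The members and lists were chosen with earlier results of these data known. Genes named were all members, the 2 highest and 2 lowest of each related list, the highest and lowest of each marker list, tj and vas; any further gene was picked with its value known. The alternatives tried were other background levels and lists, probe set choices, a pooled spread, quantile normalization and leaving out each array. Planned protein identities and promoter motifs were not analysed here.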

Additional observations from a re-analysis of the deposited data

Results flagged for a closer look

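Signal lay in a probe set outside the gene results, the one that names both Prosalpha1 and Prosalpha1R, since the rule takes probe sets of 1 gene. It measured 9.52, 8.83 and 10.03 on replicates 1, 2 and 3, with a mean of 9.46 ± 0.60 (SD, n = 3), and was above background when probe sets of several genes were kept (limma adjusted p = 0.00069). It cannot be told from this probe set which of these genes gave the signal.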

How the results depend on the processing

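No paired analysis was possible because the series has 1 group of samples. The 45 results gave 596 values under 14 alternatives. Of these, 574 had the same direction and the same call as reported or, as counts, moved by no more than 1.5 times. Each member has 1 probe set, so the probe set choices kept its values or left the gene out. For the members kept, they changed only the background level, to between 2.45 and 2.49, and the fit over other genes. Agreement under those choices was therefore nearly fixed in advance. At the stricter level 3028 of all genes and 0 paralogs were above, Prosbeta2R2 lay at -0.57 against the level and Rpt3R at -0.98. Rpt3R lay at -0.10 against the 99th percentile of the receptors, at -0.29 against the highest receptor and at -0.027 without replicate 3. The number of canonical genes above background was 25 to 26 when 1 array was left out and that of paralogs was 1. Without probe sets whose names end in _s_at, _x_at or _a_at, 20 of 20 canonical genes were above. Rpn5 lost its call at the stricter level (limma adjusted p = 0.053) and without replicate 1 (0.059); the cause was not tested. The 12 paralogs called below lost their calls with the pooled spread, which replaces SDs at or near 0 by a larger one. After quantile normalization, an alternative chosen after the data were seen, 10 of 26 canonical genes were lowest on replicate 2, in place of 20 of 22. Of the 26, 12 were lowest on replicate 1. Signal near the lowest value limits what can be said of the paralogs.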
